A study of Mus musculus with 14 samples.

Results

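Interferon-stimulated genes, the genes that cells switch on when type I or type II interferon binds its receptor, were followed through regulatory T cells (Tregs) of spleen, lymph node (LN) and melanoma. They were chosen by name, with earlier results of these data known. Of 44 gene symbols, 40 had a row among the 22255 genes of the files. Gbp4, Gbp5, Igtp and Ifi47 were not analysed here. The 40 genes comprised 5 transcription factors, 4 genes of the IFIT family, 2 of the ISG15 system, 5 of the OAS family, 5 nucleic acid sensors, 14 other antiviral effectors, 3 of the GBP family and 2 immunity-related GTPases.

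The 14 RNA libraries came from Foxp3-YFP+ Tregs of 8-week-old mice and were prepared by the Smart-Seq2 method, which amplifies full-length transcripts of few cells. Wild-type Tregs, of the strain FoxP3-YFPCre+/+, came from spleen (4 libraries), LN (4 libraries) and Yumm1.7 melanoma tumors (WT tumor, 3 libraries, replicates 2, 3 and 4). The fourth group (KO tumor, 3 libraries) was Tregs from Yumm1.7 tumors of the strain CD36floxed FoxP3-YFPCre+/-, in which Cre expressed from the Foxp3 locus deletes the fatty acid receptor gene Cd36. All groups carry the Foxp3-YFP-Cre allele, and the tumor groups differ in its copy number as well as in Cd36. Nothing in the labels ties replicates to separate animals. The p-values therefore reflect variation among these libraries alone, and part of it may be technical.

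Type I interferons signal through Ifnar1 and Ifnar2 to a complex that contains Stat2 and Irf9 and binds the interferon-stimulated response element (ISRE) of its target genes. Type II interferon, the product of Ifng, signals through Ifngr1 and Ifngr2 to target genes that carry the gamma-activated site (GAS). The induced proteins block viral replication at many steps, sense nucleic acids or feed back on the pathway, and in Tregs interferon signals are known to alter suppressive function.

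Values are FPKM, fragment counts scaled to transcript length and library size. The smallest steps in the values put the depth at 11.5 to 13.8 M reads in spleen, 18.3 to 21.4 in LN, 10.7 to 14.4 in WT tumor and 13.5 to 17.1 in KO tumor, and 7469 to 8307 genes per library reached 1 FPKM. Cd36 was listed at 0 in all WT tumor libraries and in 2 of 3 KO tumor libraries (1.06 FPKM in KO tumor 2), so it does not check the genotype labels. The Treg list of 9 markers had a mean log2(FPKM + 1) of 6.45 to 7.59 in every library, and Foxp3 ran from 3.54 to 11.97 FPKM in WT tumor against 25.7 to 42.4 FPKM in KO tumor. The 12 macrophage or monocyte markers averaged 2.55 to 3.62 in spleen and 2.52 to 2.80 in KO tumor, but 0.308 to 0.766 in LN and 0.108 to 1.26 in WT tumor. The 9 B cell markers averaged 2.39 to 3.84 in spleen and 0.634 to 1.79 in the other groups. Less RNA per cell and fewer cells of a type cannot be told apart in such bulk samples.

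The regulatory sequence before several of the genes described below is shown because it holds the letters that the interferon-activated factors recognise. Windows from 250 bases before to 50 bases after an annotated start (RefSeq, GRCm38.p6) were found for 30 of the 40 genes. The ISRE core (GAAA, any 2 bases, then GAAA, on either strand) occurred in windows of 17 of these 30 genes (56.7%) and of 584 of the 14891 genes of the files with a window (3.92%). The GAS core TTCNNNGAA, which reads the same on both strands, occurred in 9 of 30 genes against 1338 of 14891 (8.99%). All 3 GBP genes, all 3 nucleic acid sensors with a window and 3 of 4 IFIT genes held the ISRE core, against 1 of 5 transcription factors. The stretches below are the 200 bases directly before the start on the gene's own strand, and the capitals mark matches to the ISRE core in Ifit3, Ifit3b, Isg15 and Rsad2 and to the GAS core in Irf8.
Ifit3, chr19:34583329-34583528 (+): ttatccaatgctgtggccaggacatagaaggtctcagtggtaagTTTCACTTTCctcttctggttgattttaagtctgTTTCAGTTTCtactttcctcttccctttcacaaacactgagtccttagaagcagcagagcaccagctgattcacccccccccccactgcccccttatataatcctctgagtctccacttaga
Ifit3b, chr19:34607757-34607956 (+): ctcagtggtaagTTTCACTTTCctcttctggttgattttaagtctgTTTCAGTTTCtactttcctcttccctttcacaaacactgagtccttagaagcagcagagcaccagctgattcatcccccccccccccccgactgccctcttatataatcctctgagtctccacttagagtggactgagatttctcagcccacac
Isg15, chr4:156200819-156201018 (-): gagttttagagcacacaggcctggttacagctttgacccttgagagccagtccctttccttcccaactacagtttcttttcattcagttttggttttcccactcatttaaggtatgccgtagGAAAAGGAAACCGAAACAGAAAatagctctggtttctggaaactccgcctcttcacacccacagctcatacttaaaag
Rsad2, chr12:26456453-26456652 (-): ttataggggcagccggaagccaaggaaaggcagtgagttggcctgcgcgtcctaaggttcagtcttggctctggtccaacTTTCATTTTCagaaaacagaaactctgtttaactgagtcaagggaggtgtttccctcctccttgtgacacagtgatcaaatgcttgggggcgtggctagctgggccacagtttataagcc
Irf8, chr8:120736158-120736357 (+): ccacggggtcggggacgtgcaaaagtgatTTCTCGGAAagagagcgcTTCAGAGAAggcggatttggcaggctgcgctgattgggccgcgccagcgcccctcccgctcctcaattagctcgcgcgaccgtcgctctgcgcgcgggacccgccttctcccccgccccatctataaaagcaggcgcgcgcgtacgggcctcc
Ifit3 and Ifit3b carried the same pair of ISRE matches, in windows that were 99.2% identical over 260 aligned bases. Isg15 held 3 overlapping matches in a single run of capitals. A match is a description of the letters and does not show that a factor binds there.

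Across all 40 genes, the tumor libraries stood above the lymphoid ones. The mean log2(FPKM + 1) was 2.96 ± 0.25 in spleen (SD, n = 4), 2.94 ± 0.20 in LN (n = 4), 4.01 ± 0.25 in WT tumor (n = 3) and 3.70 ± 0.13 in KO tumor (n = 3). The lowest tumor library (KO tumor 3, 3.61) lay above the highest lymphoid library (LN 1, 3.19), and the tumor groups overlapped each other. The number of these genes at 10 FPKM or more was 14 to 21 per spleen library, 14 to 17 in LN, 25 to 27 in WT tumor and 20 to 25 in KO tumor. By group mean, WT tumor was the highest of the 4 groups for 22 genes and KO tumor for 11, against 4 for LN and 3 for spleen. LN was the lowest for 18 genes and spleen for 16. These means and counts were not made over all genes, unlike the differences below. Summed FPKM per library was 521884 to 562843 in spleen and 507588 to 531903 in LN. In WT tumor it was 589560 to 595391 and in KO tumor 492605 to 566585, and its part in these means and counts was not tested.

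**Figure D1:**
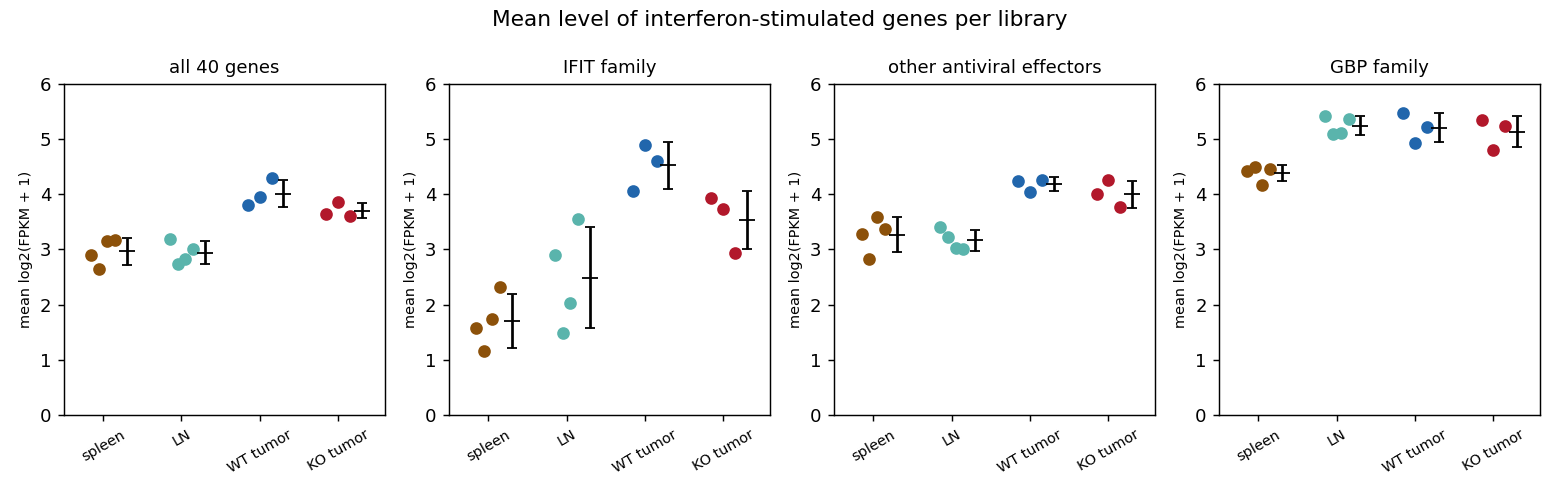
Mean log2(FPKM + 1) per library over all 40 interferon-stimulated genes and over 3 of their families, by group (x axis). Points are libraries and black bars the mean ± SD; for all 40 genes every tumor library lies above every lymphoid library, and for the GBP family LN lies beside the tumor groups, with spleen below.

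The families did not share 1 pattern. The IFIT genes averaged 1.15 to 2.32 on the log2 scale in spleen, 1.48 to 3.55 in LN, 4.06 to 4.89 in WT tumor and 2.93 to 3.92 in KO tumor, so that WT tumor alone did not overlap any other group. The GBP genes, which encode guanylate-binding GTPases that attack the membranes of intracellular pathogens, averaged 4.17 to 4.49 in spleen and 4.81 to 5.47 in the LN and tumor libraries. The transcription factors averaged 4.02 to 4.24 in spleen, 3.05 to 3.55 in LN, 3.97 to 4.88 in WT tumor and 4.18 to 4.42 in KO tumor, with LN below all others. The 3 genes with the highest mean level, Ifi27 (154 to 700 FPKM over all libraries), Isg20 (16.9 to 321 FPKM) and Ifi35 (46.7 to 190 FPKM), did not behave alike. Ifi27 and Ifi35, which encode interferon-induced proteins of membranes and of the cytoplasm, overlapped in all groups, whereas Isg20, an exonuclease that degrades viral RNA, was higher in every WT tumor library than in any lymphoid library. At the low end, Isg15 stayed at or below 4.96 FPKM and Bst2 at or below 3.83 FPKM everywhere.

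**Figure D2:**
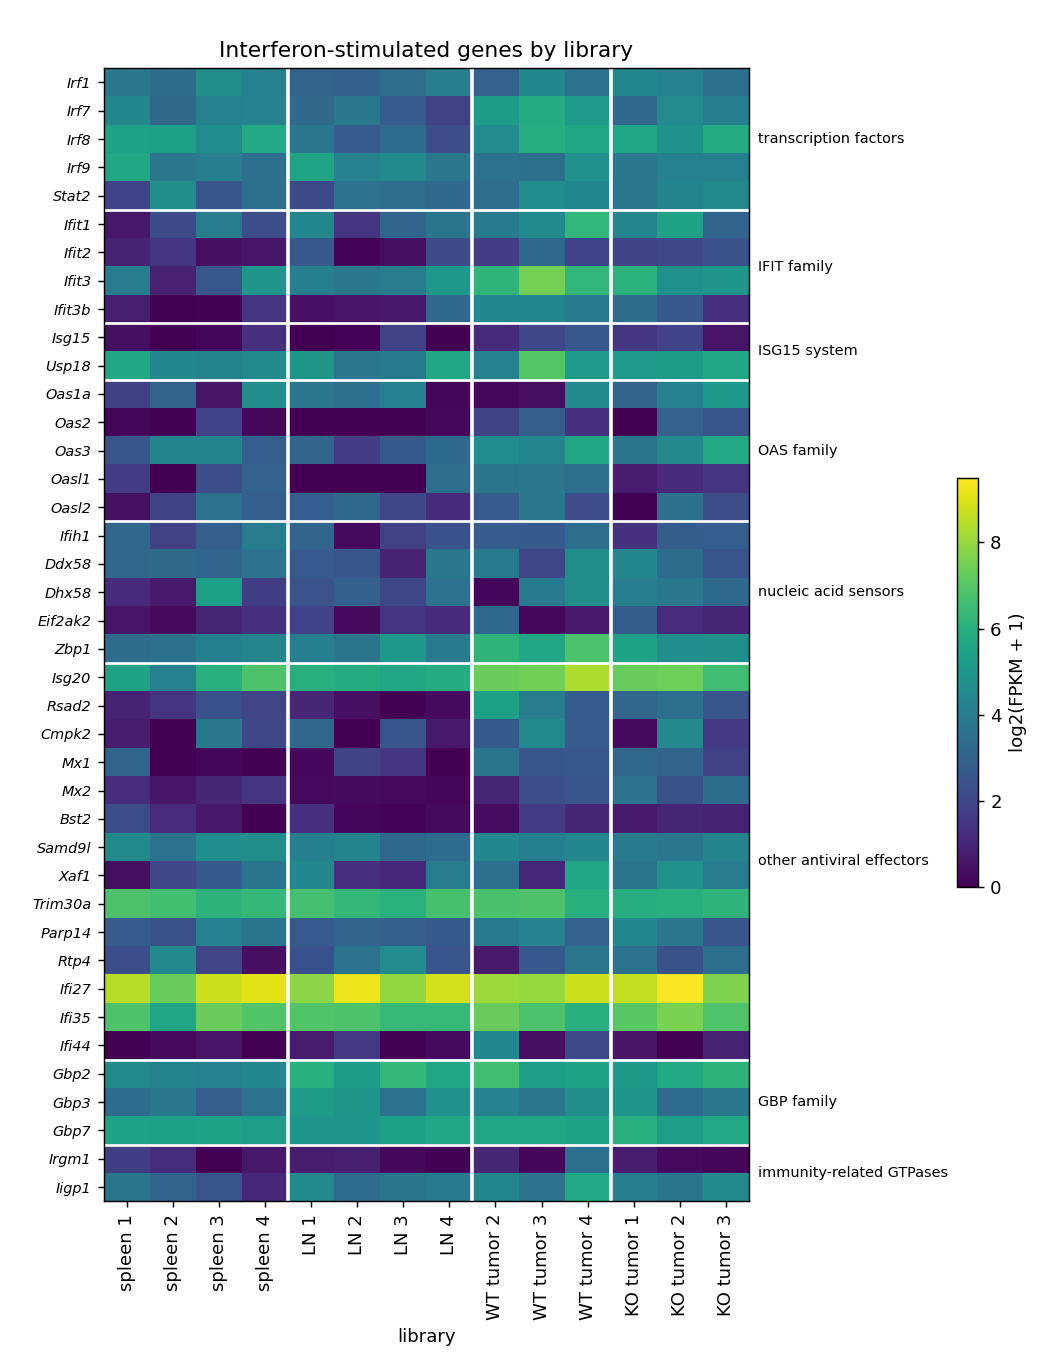
Level of each of the 40 interferon-stimulated genes (rows, by family) in each of the 14 libraries (columns, by group) as log2(FPKM + 1), from dark (0) to yellow (high). Ifi27, Ifi35 and Trim30a are high in every library, and Ifit3, Ifit3b and Zbp1 are brightest in the WT tumor columns. Isg20 is darkest in a spleen column and brightest in a WT tumor column.

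WT tumor was first set against spleen, within 1 genotype. Ifit3, Ifit3b and Zbp1 rose past the threshold, and no interferon-stimulated gene fell. The test was limma on log2(FPKM + 1) over 9616 genes with an adjusted p of 0.05 as threshold. It called 3 of the 40 genes higher, against 1.2% of all genes, and 0 of 40 lower, against 0.707% of all genes. At an unadjusted p under 0.05, 14 of the 40 were higher (6.92% of all genes) and 0 lower (7.38%). The difference was above 0 for 33 of 40 genes (46.5% of all genes) and above 1 for 18 (13.1% of all genes). The median difference was 0.85 for the 40 genes and -0.07 for all genes. The groups did not overlap, with tumor higher, for 11 of 40 genes (5.73% of all genes), and with tumor lower for 0 (5.8%).

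Ifit3 (chr19:34583531-34588731), a member of the IFIT complexes that bind foreign RNA, measured 15.2, 0.839, 5.02 and 31.2 FPKM in spleen. Its WT tumor libraries measured 73.6, 179.6 and 77.6 FPKM. Each WT tumor library was above each spleen library, by 3.55 ± 0.79 (log2 difference ± SE, limma adjusted p = 0.0356). Its near copy Ifit3b (chr19:34607970-34613401) was at 0.720, 0, 0.0362 and 1.74 FPKM in spleen and 20.7, 19.7 and 13.8 FPKM in WT tumor. That difference was 3.66 ± 0.75 (limma adjusted p = 0.0227). The transcripts of this pair are 98.0% identical over 1697 aligned bases and share 51.2% of the 50-base stretches of Ifit3, so the division of reads between them is uncertain. Zbp1 (chr2:173206612-173218923), a sensor of Z-form nucleic acids that can trigger inflammatory cell death, was at 9.31, 10.3, 16.4 and 19.0 FPKM in spleen and 70.9, 47.6 and 111 FPKM in WT tumor. Every tumor library exceeded every spleen library, with a difference of 2.37 ± 0.48 (limma adjusted p = 0.0229). Ifit3 lost its call without any single WT tumor library or spleen 3 (limma adjusted p of 0.0732 to 0.137), Ifit3b without any single WT tumor library, spleen 2 or spleen 3 (0.0568 to 0.0761), and Zbp1 without WT tumor 2, WT tumor 4, spleen 1 or spleen 2 (0.0509 to 0.0975).

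In the other families the gene with the smallest p did not pass. Isg20 came closest, at 44.8, 16.9, 64.8 and 113 FPKM in spleen and 158.6, 179.0 and 321 FPKM in WT tumor, a difference of 2.08 ± 0.50 with a limma adjusted p of 0.0545. Gbp2 had 17.1 to 21.8 FPKM in spleen and 37.6 to 94.9 FPKM in WT tumor (difference 1.44 ± 0.42, limma adjusted p = 0.112). Iigp1, an interferon-gamma-induced GTPase, had 1.06 to 11.8 FPKM in spleen and 11.4 to 53.3 FPKM in WT tumor, so that these groups overlapped. Isg15, the ubiquitin-like modifier, and Oas2, which makes oligoadenylates that activate RNase L, gave limma adjusted p of 0.293 and 0.240, and Irf7 gave 0.252. Of the transcription factors, Irf1, Irf8 and Irf9 differed by -0.35, 0.06 and -0.27, and the median of that family was 0.06, against 3.10 for the IFIT family and 1.39 for the OAS family. Markers of macrophages (Tyrobp, C1qa and C1qb), of B cells (Cd79a and Fcmr) and of dendritic cells (Itgax) fell in WT tumor against spleen. Their part in these values was not tested. The count of 3 called genes depended on single libraries: it was 0 without WT tumor 2 or WT tumor 4, 1 without WT tumor 3, spleen 2 or spleen 3, and 4 without spleen 4.

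**Figure D3:**
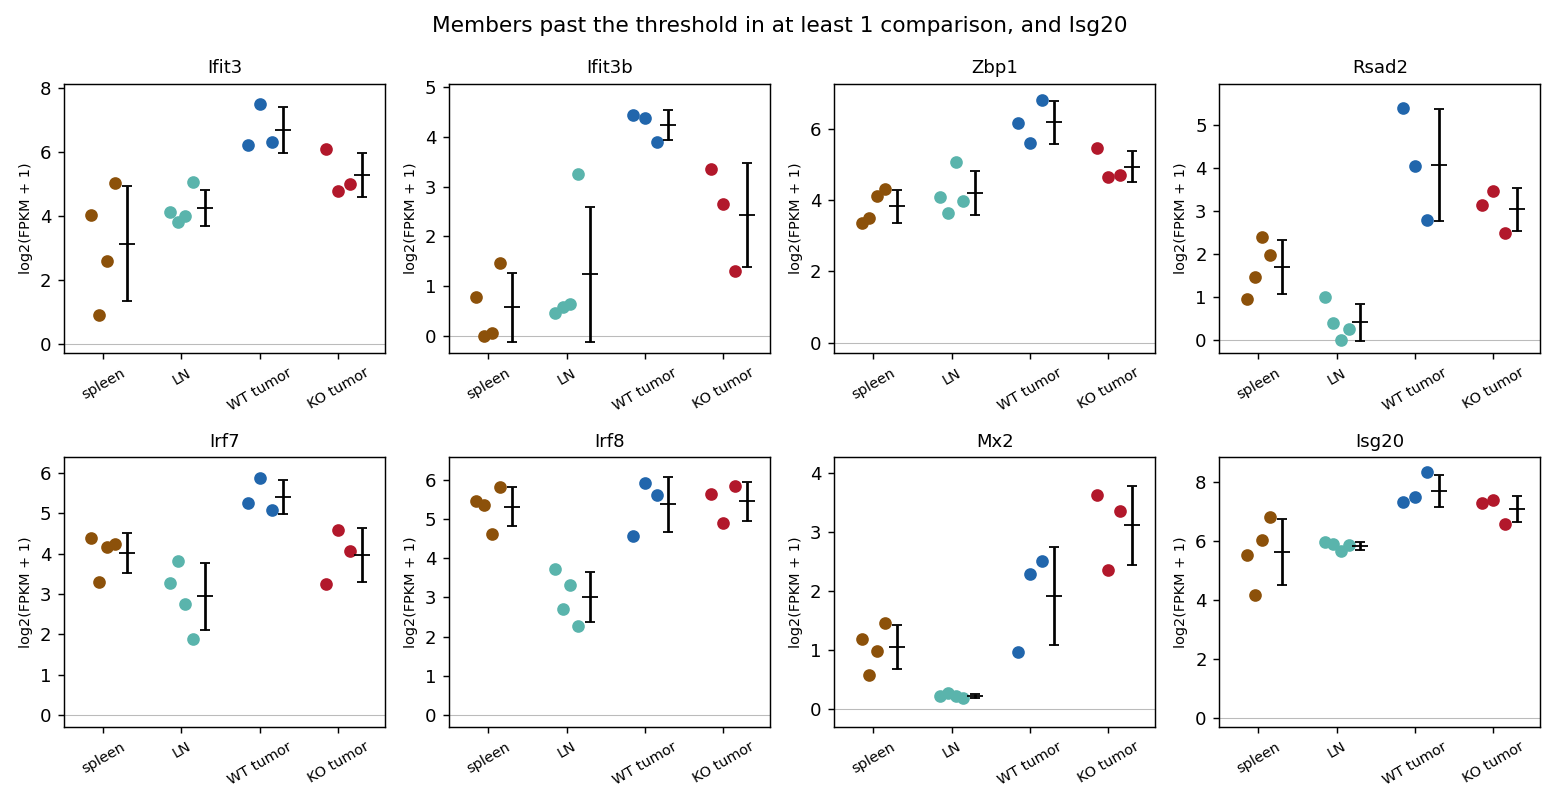
log2(FPKM + 1) in each library by group for the 7 interferon-stimulated genes past the threshold in at least 1 comparison and for Isg20. Points are libraries and black bars the mean ± SD; Ifit3, Ifit3b and Zbp1 are highest in WT tumor, and Irf8 and Mx2 are lowest in LN.

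WT tumor against LN gave more calls. Rsad2, Irf8, Irf7, Zbp1 and Ifit3b rose, which was 5 of 40 genes against 1.89% of all genes, and 0 of 40 fell, against 1.14% of all genes. The groups did not overlap, with tumor higher, for 12 of 40 genes (8.02% of all genes), and with tumor lower for 0 (8.95%). At an unadjusted p under 0.05, 13 were higher (7.23% of all genes) and 0 lower (8.41%). The difference was above 0 for 34 of 40 (44.3% of all genes) and above 1 for 20 (12.5%), with a median of 0.98 against -0.12 for all genes.

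Rsad2 (chr12:26442746-26456452), or viperin, which makes a nucleotide that stops viral polymerases, was nearly silent in LN at 1.01, 0.314, 0 and 0.202 FPKM. It reached 40.8, 15.4 and 5.88 FPKM in WT tumor, a difference of 3.65 ± 0.69 (limma adjusted p = 0.00959). Spleen lay between, at 0.943 to 4.28 FPKM. Rsad2 kept its call in all 19 alternative analyses, with limma adjusted p from 0.00389 to 0.0455. Irf7 (chr7:141262706-141266481), the factor that amplifies type I interferon production, was at 8.73, 13.2, 5.73 and 2.71 FPKM in LN and 37.3, 58.4 and 33.1 FPKM in WT tumor (2.48 ± 0.54, limma adjusted p = 0.0224). No WT tumor library overlapped LN or spleen, which was at 8.87 to 20.1 FPKM. Irf7 shares exon sequence with Phrf1 on the opposite strand, and without strand the reads of these genes cannot be told apart. Its call was lost without LN 3, LN 4, WT tumor 2 or WT tumor 3 (limma adjusted p of 0.0564 to 0.0974).

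Irf8 (chr8:120736358-120756694), a factor of myeloid and B cells that interferon-gamma also induces in T cells, set LN apart from all other groups. It was at 12.2, 5.55, 8.96 and 3.84 FPKM in LN, 22.8, 59.8 and 47.8 FPKM in WT tumor, 42.6, 40.3, 23.6 and 55.4 FPKM in spleen and 48.3, 28.7 and 55.7 FPKM in KO tumor. Against LN, WT tumor was higher by 2.36 ± 0.51 (limma adjusted p = 0.0213). Of the marker lists, macrophage scores overlapped between WT tumor and LN (0 of 8 tested markers called), and CD8 T or NK cell scores did not (1.64 to 1.92 against 0.0300 to 1.08, 0 of 4 tested markers called). Conventional dendritic cell scores barely separated, at 0.251 to 0.431 against 0.145 to 0.250 (0 of 4 tested markers called). Plasmacytoid dendritic cell scores overlapped, at 0.817 to 1.077 against 0.237 to 1.079 (0 of 6 tested markers called). Of 4 tested erythroid markers 1 was called, Hba-a2, higher in WT tumor by 3.89 (limma adjusted p = 0.0431), although its libraries overlapped. The part of these cells in the 5 called genes was not tested. Zbp1, at 16.1, 11.5, 32.7 and 14.7 FPKM in LN, differed from WT tumor by 1.997 ± 0.48 on the log2 scale, with tumor higher (limma adjusted p = 0.0396). Ifit3b, at 0.375, 0.494, 0.558 and 8.53 FPKM in LN, had the largest p of the 5 called genes (3.001 ± 0.75, limma adjusted p = 0.0461). Irf8 lost its call without LN 2, LN 4, WT tumor 3 or WT tumor 4 (limma adjusted p of 0.0574 to 0.0970), Zbp1 without LN 1, 2 or 4 or WT tumor 2 or 4 (0.0965 to 0.138), and Ifit3b without LN 1, 2 or 3 or any WT tumor library (0.0787 to 0.132).

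Of the OAS family, which makes the activators of RNase L, no gene passed. Oas2 was listed at 0 in 3 LN libraries and at 0.151 FPKM in LN 4, and was at 2.87, 6.35 and 1.56 FPKM in WT tumor (2.01 ± 0.57, limma adjusted p = 0.0790). For Oas2, 3 reads correspond to 0.0354 to 0.340 FPKM, depending on transcript and depth. Oas3 differed by 2.2004 ± 0.63 (limma adjusted p = 0.0825), and Oasl1 and Oasl2 by 2.79 and 0.61. Oas1a went the other way, by -1.21 ± 1.27, and shares 57.6% of its 50-base stretches mainly with Oas1g. Isg15, Gbp7 and Irgm1, the genes with the smallest p of their families, had limma adjusted p of 0.270, 0.660 and 0.520. Unlike in the comparison with spleen, Gbp2 did not separate these groups, with 37.2 to 80.1 FPKM in LN and a difference of -0.02. LN libraries were deeper than WT tumor libraries, and whether depth played a part was not tested. The count of 5 fell to 2 or 3 with any single library left out, with 2 without LN 2 or any of the WT tumor libraries.

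**Figure D4:**
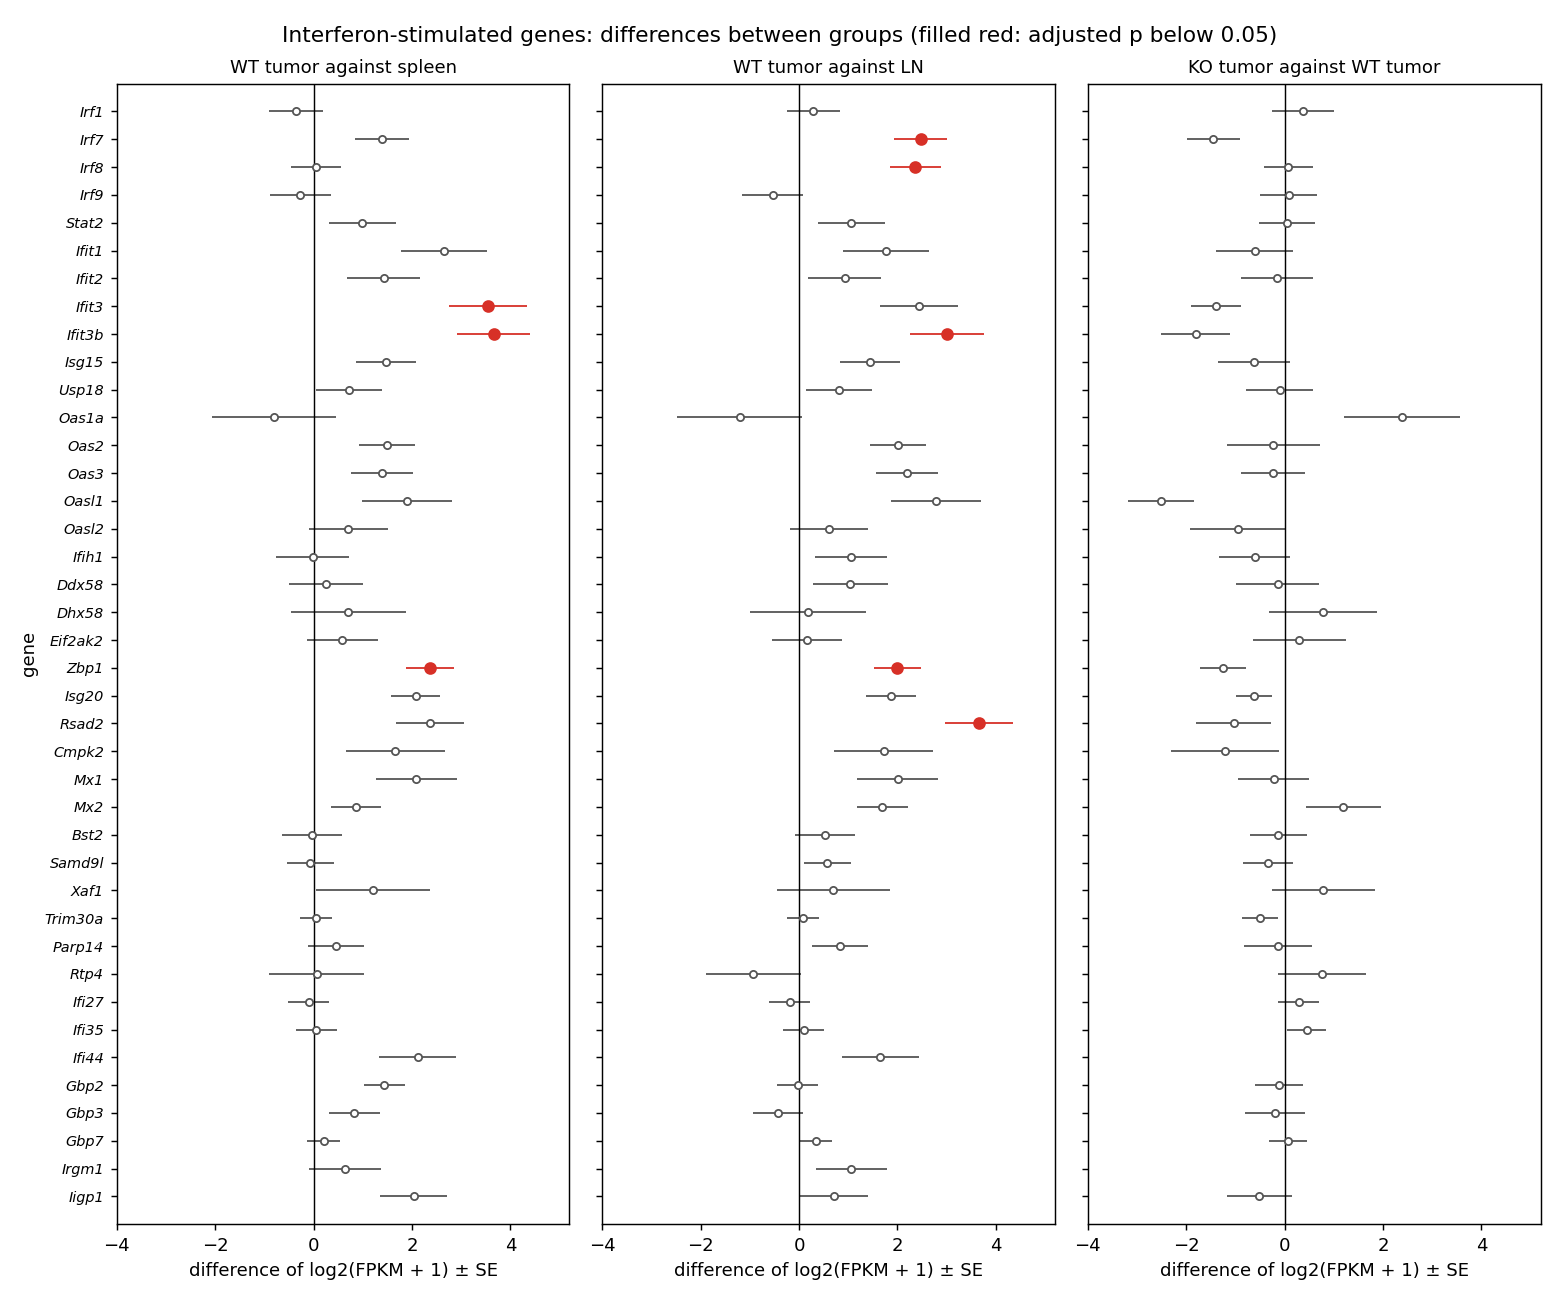
Difference of log2(FPKM + 1) between groups (x axis, point ± SE) for each interferon-stimulated gene (y axis) in 3 comparisons; filled red points passed a limma adjusted p of 0.05. Most points lie to the right of 0 for WT tumor against spleen and against LN, none is red for KO against WT tumor, and Ifi44 and Irgm1 are blank there because they were not tested.

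LN and spleen Tregs were not separated by these genes as a whole. The limma test called 0 of 40 higher in LN (0.146% of all genes) and 0 of 40 lower (0.354% of all genes), and at an unadjusted p under 0.05 it gave 2 higher (5.47% of all genes) and 2 lower (4.9%). The difference was above 0 for 20 of 40 (51.3% of all genes), with a median of 0.00 against 0.03 for all genes. Groups did not overlap for 1 gene higher in LN (3.87% of all genes), Gbp2, and for 2 lower (4% of all genes), Irf8 and Mx2. Gbp2 was at 64.2, 37.2, 80.1 and 47.5 FPKM in LN and 21.8, 17.9, 17.1 and 20.9 FPKM in spleen, a difference of 1.46 ± 0.38 (limma adjusted p = 0.145). Irf8 was lower in LN by 2.31 ± 0.47 on the log2 scale (limma adjusted p = 0.0513). Past the threshold, 4 macrophage markers (Tyrobp, C1qa, C1qb and Fcer1g), the B cell marker Cd79a and the dendritic cell marker Itgax were lower in LN. Scores of conventional (0.145 to 0.250 against 0.540 to 1.031) and plasmacytoid (0.237 to 1.079 against 1.163 to 1.404) dendritic cells also lay below spleen. Their part in the Irf8 values was not tested. Irf8 passed the threshold in 6 of 20 alternative analyses, with limma adjusted p from 0.0329 to 0.149 over all of them.

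Cd36-deleted tumor Tregs differed from wild-type tumor Tregs in no interferon-stimulated gene past the threshold. Of the 38 genes tested, limma called 0 higher (0.0974% of the 8210 genes tested) and 0 lower (0.183%). At an unadjusted p under 0.05, 0 were higher (5.07% of all genes) and 5 lower (3.57%). The same number, 5, did not overlap with KO lower (6.93% of all genes), and 0 did with KO higher (7.54%). The difference was above 0 for 13 of 38 (53.7% of all genes), with a median of -0.17 against 0.07 for all genes.

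The 5 non-overlapping genes were Oasl1, Ifit3, Ifit3b, Irf7 and Zbp1. Oasl1, which represses the translation of Irf7, was at 11.6, 12.5 and 10.4 FPKM in WT tumor and at 0.675, 1.204 and 1.796 FPKM in KO tumor. The difference of -2.52 ± 0.67 had a limma adjusted p of 0.277. In spleen and LN this gene ran from 0 to 9.44 FPKM, so the KO values lay within the lymphoid range, and Gm13822 overlaps its exons on the opposite strand. Irf7 was at 8.46, 23.0 and 15.7 FPKM in KO tumor, beside 8.87 to 20.1 FPKM in spleen, and differed from WT tumor, with KO lower, by 1.45 ± 0.54 on the log2 scale (limma adjusted p = 0.475). Ifit3 was at 66.2, 26.4 and 30.5 FPKM and Ifit3b at 9.17, 5.24 and 1.46 FPKM in KO tumor, with differences of -1.40 ± 0.51 and -1.81 ± 0.70 (limma adjusted p of 0.460 and 0.507). Zbp1 was at 42.9, 24.4 and 25.3 FPKM, a difference of -1.25 ± 0.47 (limma adjusted p = 0.475).

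Mx2, Oas1a and 11 further genes had differences above 0. Mx2, an interferon-induced dynamin-like GTPase annotated as a polymorphic pseudogene in the mouse reference, measured 0.961, 3.87 and 4.67 FPKM in WT tumor against 11.4, 4.11 and 9.21 FPKM in KO tumor (1.19 ± 0.76, limma adjusted p = 0.745). These libraries overlapped, as did those of Oas1a (2.39 ± 1.18, limma adjusted p = 0.641). Isg15, Isg20, Iigp1 and Gbp3 differed by -0.62, -0.62, -0.51 and -0.19, and the last 2 changed sign in some alternatives. Macrophage markers were higher in KO tumor, with Tyrobp (0.492 to 6.11 FPKM against 91.8 to 177 FPKM) and C1qb past the threshold. Their part in the differences between the tumor groups was not tested. In all 17 alternative analyses the count of called genes was 0.

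KO tumor was also set beside the lymphoid groups, a comparison in which tissue and genotype cannot be told apart and which shares its spleen and LN libraries with the comparisons above. Against LN, Mx2, Irf8 and Rsad2 rose, 3 of 40 genes against 2.11% of the 10147 genes tested, and 0 fell (1.31%). At an unadjusted p under 0.05, 7 were higher (7.08% of all genes) and 0 lower (6.05%), and groups did not overlap for 6 with tumor higher (8.83%) and 0 with tumor lower (8.06%). Mx2 was at 0.174, 0.204, 0.173 and 0.135 FPKM in LN, within the 0.0566 to 0.523 FPKM that 3 reads give depending on transcript and depth, and KO tumor was higher by 2.88 ± 0.55 (limma adjusted p = 0.00662). This call held in all 17 alternatives in which it was tested, with limma adjusted p from 0.00213 to 0.0423. Irf8 was higher by 2.44 ± 0.48 (limma adjusted p = 0.00785). The macrophage markers Tyrobp, C1qb, C1qc and Fcer1g were also higher, and their part in the Mx2, Irf8 and Rsad2 values was not tested. Rsad2, at 7.86, 10.1 and 4.64 FPKM in KO tumor, was higher by 2.62 ± 0.65 (limma adjusted p = 0.0344), and that call was lost without any single KO tumor library or without LN 2, 3 or 4 (limma adjusted p of 0.0604 to 0.152). Without KO tumor 3 the count was 1, since Irf8 then had a limma adjusted p of 0.0502. Against spleen, 0 of 40 genes were called higher (1.64% of all genes) and 0 lower (1.16%), with 9 higher (7.5%) and 0 lower (6.36%) at an unadjusted p under 0.05, and the count was 2 without spleen 4. Groups did not overlap for 6 with tumor higher (7.05%) and 0 with tumor lower (6.4%). Mx2 was the nearest there, at 1.28, 0.503, 0.987 and 1.76 FPKM in spleen (2.05 ± 0.55, limma adjusted p = 0.0595). The median difference of the 40 genes was 0.73 against spleen and 0.71 against LN, beside 0.02 and -0.01 for all genes. It was above 0 for 31 genes against spleen (51% of all genes) and 32 against LN (49.7%), and above 1 for 17 (15.1%) and 14 (12.6%).

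Genes upstream of the response were read from lists of the pathway. Of 11 interferon genes listed, 7 had a row, and only Ifng was tested. Ifnb1, Ifna4, Ifne, Ifnl2 and Ifnl3 were listed at 0 in all 14 libraries, and Ifnk at 0.202 FPKM in spleen 2 and 0 elsewhere. Ifng was at 21.8, 0, 4.92 and 0 FPKM in spleen and 13.9, 7.16, 1.001 and 23.8 FPKM in LN. It reached 166, 42.5 and 155.8 FPKM in WT tumor and 235.8, 108 and 190.8 FPKM in KO tumor. Every tumor library was above every lymphoid library. The difference was 4.94 ± 1.10 for WT tumor against spleen (limma adjusted p = 0.0351), 3.57 ± 1.10 for WT tumor against LN (0.111, not past the threshold), 5.65 ± 1.0196 for KO tumor against spleen (0.00508) and 4.28 ± 1.0196 for KO tumor against LN (0.0268). The call of WT tumor against spleen was lost without any single library other than spleen 1 (limma adjusted p of 0.0570 to 0.117), and that of KO tumor against LN without any KO tumor library, LN 2 or LN 3 (0.0647 to 0.119). CD8 T or NK cell markers averaged 0.0300 to 1.08 in LN, below every library of WT tumor (1.64 to 1.92) and KO tumor (1.74 to 2.11), and 0.609 to 2.19 in spleen, which overlapped both. Their part in the Ifng values was not tested.

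Of the 11 receptors and signal transducers, 9 or 10 were tested per comparison. Ifngr1, the ligand-binding chain of the interferon-gamma receptor, was at 87.3 to 236 FPKM in spleen, 100.9 to 134.5 FPKM in LN, 714 to 943 FPKM in WT tumor and 554.6 to 677 FPKM in KO tumor. It rose in WT tumor by 2.58 ± 0.29 against spleen and 2.87 ± 0.29 against LN (limma adjusted p = 0.000617 and 0.000105), and both calls held in all 19 alternatives. KO tumor was likewise higher, by 2.08 against spleen and 2.37 against LN (limma adjusted p = 0.000407 and 0.000139). Both of these calls held in all 18 alternatives. Ifngr2, its signalling partner, stayed at or below 3.75 FPKM in all libraries. Ifnar1 was at 1.94, 0.190, 2.19 and 0.0418 FPKM in LN and 11.1, 8.55 and 8.75 FPKM in KO tumor (2.49 ± 0.59, limma adjusted p = 0.0247, lost without any KO tumor library, LN 2 or LN 4, at 0.0768 to 0.108). Macrophage markers were higher in KO tumor than in LN, and their part in the Ifnar1 values was not tested. Stat3 rose in KO tumor against spleen by 2.32 ± 0.44 (limma adjusted p = 0.00741, and 0.0518 without KO tumor 3). In WT tumor Stat3 was also higher than in every spleen library, by 1.61 ± 0.47, but did not pass (limma adjusted p = 0.118).

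**Figure D5:**
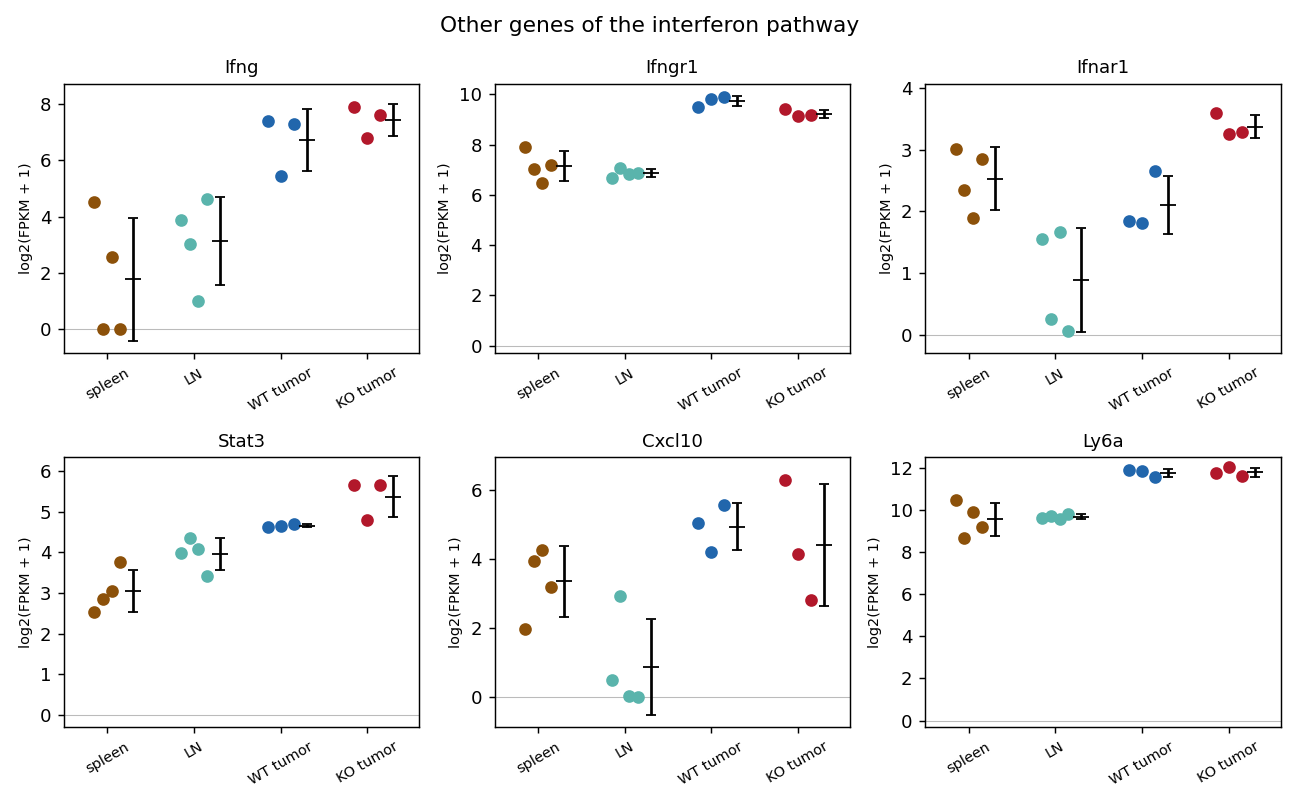
log2(FPKM + 1) in each library by group for Ifng, 2 receptor chains, Stat3 and 2 further interferon-induced genes. Points are libraries and black bars the mean ± SD; Ifng, Ifngr1 and Ly6a lie higher in every tumor library than in any lymphoid library.

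Of the 14 inducers of interferon 10 to 12 were tested per comparison, and of the 8 negative regulators 7 or 8. None of those tested was called in any of the 6 comparisons. Of all genes, 0.0974 to 2.11% were called higher and 0.183 to 1.31% lower, so for such short lists 0 is near those shares. Socs1, which blocks receptor kinases, stayed at or below 1.96 FPKM. Of 45 further interferon-induced genes 37 were tested in the fit of spleen, LN and WT tumor. Against spleen 1 rose and 0 fell (1.2% and 0.707% of all genes), and against LN 1 rose and 1 fell (1.89% and 1.14% of all genes), counts near those shares. Ly6a, the surface protein Sca-1, was the gene that rose in both, from 406 to 1401 FPKM in spleen and 748 to 893 FPKM in LN to 2977 to 3751 FPKM in WT tumor (2.201 ± 0.31 and 2.08 ± 0.31, limma adjusted p = 0.00273 and 0.00189). Ms4a4b fell by 0.67 against LN (limma adjusted p = 0.0303), a call lost without any single library (0.0540 to 0.119). Of 9 tested genes of the interferon-gamma list, Cxcl10, a chemokine that draws activated T cells, rose in WT tumor against LN by 4.07 ± 0.80 (limma adjusted p = 0.0117, and 0.0518 without WT tumor 4), from 0.401, 6.53, 0.0306 and 0 FPKM to 31.6, 17.5 and 46.3 FPKM. In KO tumor Ly6a was at 3085 to 4140 FPKM and rose against spleen and LN, by 2.24 ± 0.29 and 2.12 ± 0.29 (limma adjusted p = 0.000427 and 0.000457).

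Against LN, KO tumor also differed in 4 more of these genes. Of 39 further interferon-induced genes tested, Ly6a included, 1 rose and 2 fell. Of 9 tested genes of the interferon-gamma list 2 rose and 0 fell, beside 2.11% and 1.31% of all genes. Serpina3g, a serine protease inhibitor, was at 19.96 to 81.5 FPKM in LN and 162 to 259 FPKM in KO tumor (2.13 ± 0.47, limma adjusted p = 0.0174, and 0.0594 and 0.0946 without KO tumor 2 or 3). Cxcl10 rose by 3.55 ± 0.87 (limma adjusted p = 0.0328, lost without KO tumor 1 or 2 or LN 1, 3 or 4, at 0.0865 to 0.212). Ms4a4b fell by 0.87 (limma adjusted p = 0.00326) and Ms4a6b fell by 0.88 (0.0288, lost without KO tumor 1 or 3 or LN 1, 2 or 4, at 0.0722 to 0.150). Macrophage scores were 2.52 to 2.80 in KO tumor and 0.308 to 0.766 in LN, and the part of these cells in the values was not tested. Against spleen, 2 of the 39 rose, Ly6a and Ifitm2, and 0 fell (1.64% and 1.16% of all genes). Ifitm2, which hinders the entry of viruses into cells, rose there by 3.82 ± 0.91 (limma adjusted p = 0.0313, lost without any KO tumor library, spleen 1 or spleen 2, at 0.0629 to 0.124). Between KO and WT tumor no tested gene of these lists passed the threshold (0.0974% of all genes higher and 0.183% lower).

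Replicates of a group varied about as much in the interferon-stimulated genes as in all genes. The median SD of log2(FPKM + 1) was 0.775 against 0.844 for all genes in spleen, 0.683 against 0.652 in LN, 0.714 against 0.796 in WT tumor and 0.585 against 0.662 in KO tumor. Deviations from the group means had a median pairwise correlation of 0.03 among the 40 genes and 0.00 among all 10147 genes, over 14 libraries. All genes of a library share its depth and preparation. Of the 40 genes, 6, 9 and 8 had their highest value in WT tumor 2, 3 and 4. WT tumor 2 led in Rsad2, Gbp2 and Ifi44, WT tumor 3 in Ifit3, Irf7 and Usp18, and WT tumor 4 in Ifit1, Zbp1 and Isg20.

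The differences were also laid beside the motifs. For WT tumor against spleen the median difference was 0.83 for the 17 genes with an ISRE core in the window, 1.21 for the 13 without and 0.79 for the 10 with no window, and for WT tumor against LN it was 1.06, 0.93 and 0.83. Genes with a GAS core (9) had medians of 0.06 against spleen and 0.35 against LN, and the 21 without had 1.39 and 1.06. These medians are descriptions of genes chosen by name, and no test was made between them.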

How the data were processed

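RNA was measured in 14 Treg libraries (4 spleen, 4 LN, 3 WT tumor, 3 KO tumor). The authors deposited normalized FPKM values per gene. Per the submitters' processing notes, the tools were Bowtie2 2.2.9, TopHat2 2.1.1, Cufflinks 2.2.1, Cuffdiff, Trimmomatic and DESeq2, on mm10 (GRCm38), and none was rerun here. The file headers give no unit: FPKM was inferred from the values. Of the low values, 93.2 to 96.6% were whole reads within 0.1 once scaled by transcript length, which gave the depths. None of 15 widely used genes was at 0 in any library, but some came near it. Their lowest values ran from 0.058 FPKM (Hprt) and 0.089 FPKM (Tbp) through 2.585 FPKM (Gapdh) to 5433 FPKM (Actb).

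Genes with at least 1 FPKM in at least 3 libraries of a fit were tested on log2(FPKM + 1) with robust limma-trend (limma 3.58.1, R 4.3.3) and Benjamini-Hochberg adjustment over all tested genes. Spleen, LN and WT tumor formed 1 fit, the tumor groups another, and all 14 libraries were fitted for KO tumor against spleen and LN. The log2(FPKM + 1) scale understates differences of low genes. Alternatives were other pseudocounts, filters, scalings, weights and designs, and leaving out each library. Positions came from GENCODE M21, which matched 22201 of 22255 identifiers. Promoters came from RefSeq.

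The genes, lists and comparisons were chosen with earlier results of these data known. Named were genes past the threshold, the smallest p of each family, the 3 highest genes and, after their values were seen, genes whose groups do not overlap. Python 3.11.15, numpy 2.4.6, pandas 2.3.3 and matplotlib 3.10.9 did the rest.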

Additional observations from a re-analysis of the deposited data

Results flagged for a closer look

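In 8 of the 80 groups of 4 libraries (40 genes in spleen and LN), 1 library lay far from the other 3, with a gap of more than 0.829 of the group's range on the log2(FPKM + 1) scale. For normally distributed values chance gives about 1 in 20, a rate that need not hold for groups with libraries at or near 0, as most of these are. Ifit3b was at 8.53 FPKM in LN 4 and 0.375 to 0.558 FPKM in the other LN libraries. Oasl1 was at 9.44 FPKM in LN 4 and 0 to 0.0213 FPKM in the others, and Oas2 was at 0.151 FPKM in LN 4 and 0 elsewhere in LN. Isg15 was at 2.64 FPKM in LN 3 and 0 to 0.0653 FPKM in the others. Bst2 was at 1.54 FPKM in LN 1 and 0.0587 to 0.206 FPKM in the others. In spleen, Oas2 was at 2.76 FPKM in spleen 3 and 0 to 0.154 FPKM in the others, and Mx1 was at 7.27 FPKM in spleen 1 and 0.0240 to 0.128 FPKM in the others. Samd9l was low instead, at 10.8 FPKM in spleen 2 and 22.2 to 24.7 FPKM in the others. LN 4 was the outlying library in 3 of the 8. Without LN 4, Oasl1 passed the threshold for WT tumor against LN (limma adjusted p = 0.0262).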

How the results depend on the processing

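Of 1331 recomputed tests of named genes, 1182 kept direction and side of the threshold, 129 fell short of it, 16 newly passed and 4 changed sign. For KO against WT tumor, Iigp1 became 0.0915 with the replicate block and ran from -0.99 to 0.0770 with a library left out (above 0 without WT tumor 4), and Gbp3 from -0.67 to 0.16 (above 0 without WT tumor 4, at 0.0355, or KO tumor 2). The genes called for WT tumor against spleen numbered 1 with log2(FPKM + 0.1), no filter or only the groups compared, 0 with array weights and 0 to 4 with a library left out. For WT tumor against LN they numbered 3 with no filter, upper-quartile scaling, scaling to 1 total or array weights, and 2 to 3 with a library left out. LN against spleen had 1, Irf8, with log2(FPKM + 0.1), log2(FPKM + 0.5), a filter at 5 FPKM, array weights, no robust step or all 14 libraries. KO tumor against spleen had 1 with no filter and 0 to 2 with a library left out, and KO tumor against LN had 1 to 3. Of 111 recomputed medians 108 moved by less than the spread between libraries (0.275). The others were 1.31 for WT tumor against LN and 1.06 for KO tumor against spleen, both with log2(FPKM + 0.1), and 1.17 for WT tumor against spleen without WT tumor 2 (0.86 to 1.17 with a library left out).

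Upper-quartile scaling moved the median of all genes for WT tumor against LN from -0.12 to -0.35 and for KO against WT tumor from 0.07 to 0.23. All-gene calls for WT tumor against LN went from 182 higher and 110 lower to 151 and 267 (153 and 193 with 1 total), and those for LN against spleen from 14 and 34 to 46 and 28 (24 and 32). For KO against WT tumor they went from 8 and 15 to 10 and 12 with 1 total.

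With the replicate block, 1 of 40 genes was called for WT tumor against spleen and 1 for WT tumor against LN. Same-numbered libraries did not deviate together (correlations of -0.028 to 0.03 over 18 pairs, beside -0.033 to 0.03 over 55 other pairs). A pairing by number was thus not seen, but among such variable libraries these correlations cannot exclude it. The cause of these changes was not tested. With 3 or 4 libraries per group, and values of a few reads or fewer for Isg15, Oas2 or Mx2 in most LN libraries, small differences were not detectable.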
